A study of Homo sapiens with 4 samples.

Results

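Autophagy and lysosome genes were followed in 2 human multiple myeloma cell lines with and without knockdown of MIF, the cytokine macrophage migration inhibitory factor. The genes came from a named list of 44, which holds autophagy receptors, proteins of the ATG8 family, the core autophagy machinery, the transcription factors TFEB and TFE3, lysosomal enzymes and lysosomal membrane, lipid and activator proteins. Of the 44 genes, 35 had a probe set with a gene name on the array, out of 14884 named genes in all. A total of 31 lay at or above the median level of all named genes and were tested among 7442 genes. MAP1LC3B, TFEB, CTSH and CTSL were named but lay below that level. NBR1, BECN1, WIPI1, WIPI2, GLA, GAA, NPC1, NPC2 and ATP6V1H are not named on this array here and have no value.

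The study measured total RNA of ARP-1 and MM.1S, both derived from multiple myeloma, a cancer of plasma cells, on 4 whole-transcript microarrays. Each line gave 1 array of CTR-KO cells, which carried a lentiviral control hairpin RNA, and 1 array of MIF-KO cells, which carried a lentiviral hairpin RNA against MIF. All 4 cell populations were grown in RPMI1640 medium with fetal bovine serum and sorted for GFP, and no clone, culture number or time after infection is named. A hairpin RNA lowers a transcript and leaves the gene in place, so KO is the labels' word for a knockdown.

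MIF itself stood at log2 intensities of 10.09 in CTR-KO ARP-1, 9.08 in MIF-KO ARP-1, 9.98 in CTR-KO MM.1S and 8.66 in MIF-KO MM.1S. The MIF-KO level was 49.6% of the control level for ARP-1 and 40.0% for MM.1S. The mean difference over both lines was -1.17 on the log2 scale (SE 0.29, 2 arrays per condition), with a limma adjusted p of 0.99995. The titles and genotype labels set these groups, but the description of each ARP-1 array names the opposite condition, so every direction below that involves ARP-1 rests on the titles. The CTR-KO ARP-1 array differed at least 2-fold from MIF-KO ARP-1 for 491 tested genes, from CTR-KO MM.1S for 497 and from MIF-KO MM.1S for 185. Among the other arrays that number was 171 for the MIF-KO arrays of both lines, 82 within MM.1S and 66 for CTR-KO MM.1S against MIF-KO ARP-1. Markers of plasma cells were above the median level of all genes on every array for all 6 named here (SDC1, CD38, SLAMF7, IRF4, XBP1 and MZB1, of 8 listed), at log2 intensities from 5.36 to 12.10. They did not move together. SDC1 and CD38 differed between MIF-KO and CTR-KO by -1.36 and -1.44 (log2) in ARP-1 and by 0.48 and 0.46 in MM.1S, whereas XBP1 differed by 0.51 and MZB1 by 0.45 in ARP-1, and by -0.05 and -0.63 in MM.1S. The part of these marker differences in the results below was not tested.

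Autophagy encloses cytoplasmic cargo in a double membrane and delivers it to the lysosome. Receptors tie the cargo to ATG8 proteins, which the ATG conjugation machinery attaches to lipid in the growing membrane, and the lysosome's hydrolases then degrade what arrives. TFEB and TFE3 switch on many lysosomal and autophagy genes through a promoter element called CLEAR, whose core is the letters CACGTG. Plasma cells and myeloma cells make large amounts of immunoglobulin and are known to depend on protein degradation, autophagy included.

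Promoters of several of the genes hold that core, and a few are shown because the results below are later read by its presence. RefSeq (GRCh38.p14) gave a promoter window, from 250 bases before to 50 after a start site, for 37 of the 44 genes. PSAP, UVRAG, LAMP2, ATP6V1H, HEXA, CTSB and CTSS had no entry. Each line gives 60 bases 5′ to 3′ on the gene's strand, with the searched motif in capitals. The first 6 promoters carry CACGTG. GABARAPL1 carries TGACGTCA, the cyclic AMP response element. OPTN is shown because its level spanned the widest range over the 4 arrays, and the stretch before its start holds none of the motifs searched.
MCOLN1, chr19:7522564-7522623, plus strand: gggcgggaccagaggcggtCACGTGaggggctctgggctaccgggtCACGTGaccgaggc
CTSA, chr20:45891275-45891334, plus strand: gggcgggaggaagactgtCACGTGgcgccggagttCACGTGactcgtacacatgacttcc
LAMP1, chr13:113297043-113297102, plus strand: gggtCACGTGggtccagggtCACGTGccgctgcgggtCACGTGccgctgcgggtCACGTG
CTSD, chr11:1763928-1763987, minus strand: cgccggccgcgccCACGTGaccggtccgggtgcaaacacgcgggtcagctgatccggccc
NEU1, chr6:31862915-31862974, minus strand: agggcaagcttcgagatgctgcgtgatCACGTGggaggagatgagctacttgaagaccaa
ATG3, chr3:112561963-112562022, minus strand: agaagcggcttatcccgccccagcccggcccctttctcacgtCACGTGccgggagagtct
GABARAPL1, chr12:10212817-10212876, plus strand: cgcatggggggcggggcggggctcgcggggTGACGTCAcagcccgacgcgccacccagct
OPTN, chr10:13100022-13100081, plus strand: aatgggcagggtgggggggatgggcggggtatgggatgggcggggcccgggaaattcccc

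No autophagy or lysosome gene passed the test of MIF-KO against CTR-KO over both lines. The model (limma, cell line and condition as terms, Benjamini-Hochberg adjustment over 7442 genes) called 0 of the 31 genes, beside 0% of all tested genes, and every one of the 31 had an adjusted p of 0.99995. At an unadjusted p under 0.05 there were 29 genes in all and 0 of the 31. The lowest unadjusted p among them was 0.182, for CTSS. MIF itself also had an adjusted p of 0.99995 by limma, so not passing does not show that a level was unchanged. Each line has 1 array per condition, so values within a line carry no error and no test, and the error of the fit over both lines is how far the lines differ in their responses. In such bulk RNA, fewer cells with a transcript and less of it per cell cannot be told apart.

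Within the lines the genes mostly ran in opposite directions, as most tested genes did. In ARP-1, 21 of the 31 genes were higher in MIF-KO than in CTR-KO cells, beside 3548 of all 7442 tested genes. The median difference of the 31 was 0.25 on the log2 scale, beside -0.03 over all tested genes. In MM.1S, 21 of the 31 were lower in MIF-KO cells, beside 3342 of all 7442 tested genes. The median of the 31 there was -0.11, beside 0.04 over all tested genes. The lines had opposite signs for 23 of the 31 genes (74.2%), and for 67.6% of all tested genes. With the ARP-1 arrays exchanged the share turns, to 8 of 31 (25.8%) beside 32.4%. A total of 17 of the 31 were higher in MIF-KO ARP-1 and lower in MIF-KO MM.1S at any size, as were 30.1% of all tested genes.

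Counted at 1.5-fold or more, 8 of the 31 genes were higher in MIF-KO ARP-1 (OPTN, CALCOCO2, GABARAPL1, TFE3, CTSB, CTSS, CTSZ and PSAP), beside 10.9% of all tested genes. ATG3 and CD68 were lower there by that much, 2 of 31, beside 11.9%. In MM.1S, 1 gene was higher (CD68), beside 5.12%, and 2 were lower (OPTN and TFE3), beside 2.89%. OPTN, TFE3 and CD68 were at least 1.5-fold apart in both lines in opposite directions, 3 of 31, beside 4.88% of all tested genes. In the same direction there were 0 of 31, beside 0.0806%.

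**Figure D1:**
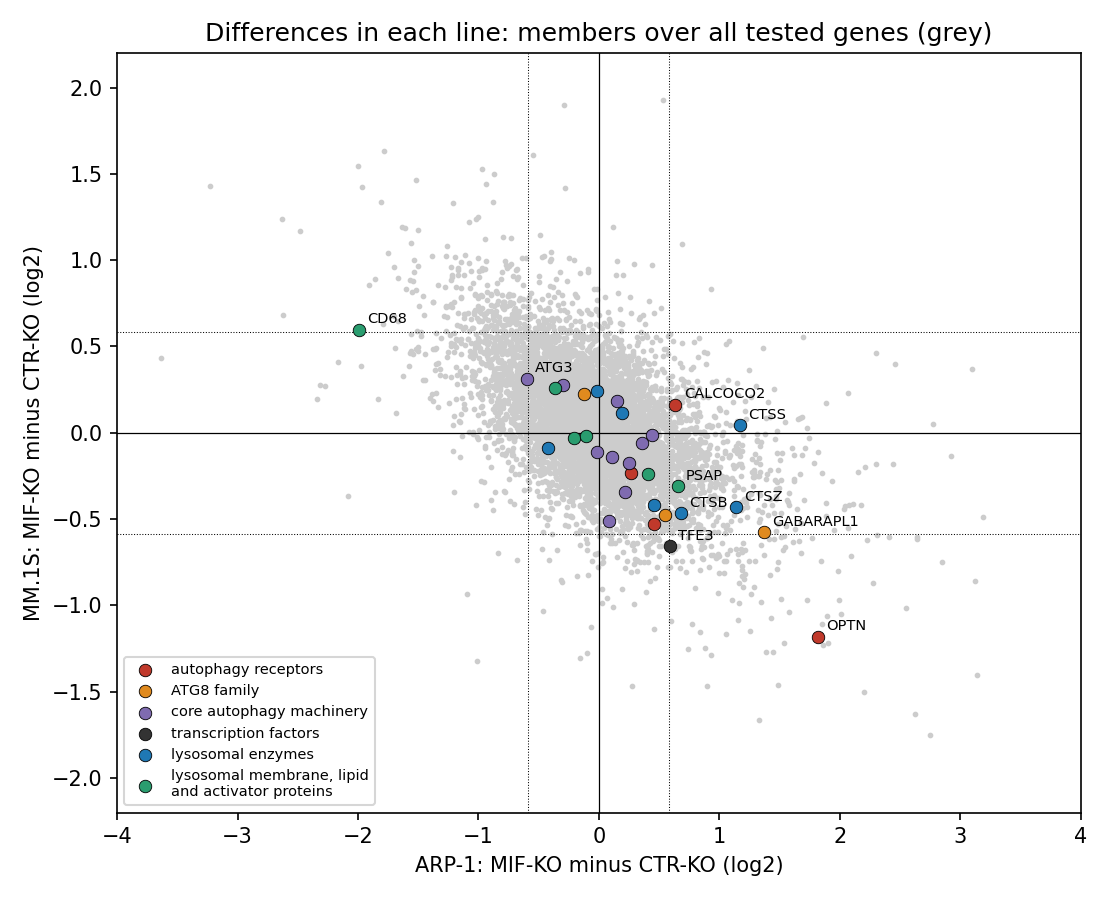
MIF-KO minus CTR-KO (log2) in ARP-1 on the x axis against the same in MM.1S on the y axis, 1 point per tested autophagy or lysosome gene (31) over all 7442 tested genes, with 1 array per line and condition. OPTN lies at 1.82 and -1.18 and CD68 at -1.99 and 0.60, and 23 of the 31 genes have opposite signs in the lines.

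Of the autophagy receptors, OPTN had the largest differences in both lines. It encodes optineurin, which binds ubiquitin-marked mitochondria and bacteria and hands them to ATG8 proteins. Its log2 intensity was 6.63 in CTR-KO ARP-1, 8.44 in MIF-KO ARP-1, 9.07 in CTR-KO MM.1S and 7.89 in MIF-KO MM.1S. The CTR-KO ARP-1 array was the low one and the CTR-KO MM.1S array the high one, with both MIF-KO arrays between them, so the ranges of the conditions overlap. OPTN was 3.52-fold higher in MIF-KO ARP-1 and 2.27-fold higher in CTR-KO MM.1S than in its partner. The mean difference over both lines was 0.32 (SE 0.73, 95% interval -1.57 to 2.21). The annotated span of OPTN overlaps the pseudogene SNRPGP5, whose part in its signal was not tested.

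CALCOCO2, or NDP52, is a receptor for bacteria and mitochondria. Its log2 intensities were 6.69 in CTR-KO and 7.33 in MIF-KO ARP-1, and 7.16 in CTR-KO and 7.33 in MIF-KO MM.1S. Both MIF-KO arrays lay above both CTR-KO arrays. The mean difference was 0.40 (SE 0.31, 95% interval -0.39 to 1.18), and its adjusted p by limma was 0.99995. SQSTM1, or p62, which carries ubiquitin-marked protein aggregates, stood at 6.97 and 7.43 in CTR-KO and MIF-KO ARP-1 and at 7.32 and 6.79 in CTR-KO and MIF-KO MM.1S. Its differences of 0.46 and -0.53 were near 1.5-fold in both lines and opposite. SQSTM1 overlaps the coding genes MGAT4B and MRNIP in the annotation, whose part in its signal was not tested. TAX1BP1, a receptor related to CALCOCO2, differed by 0.27 in ARP-1 and by -0.23 in MM.1S. The median of the 4 receptors was 0.55 for ARP-1 and -0.38 for MM.1S.

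**Figure D2:**
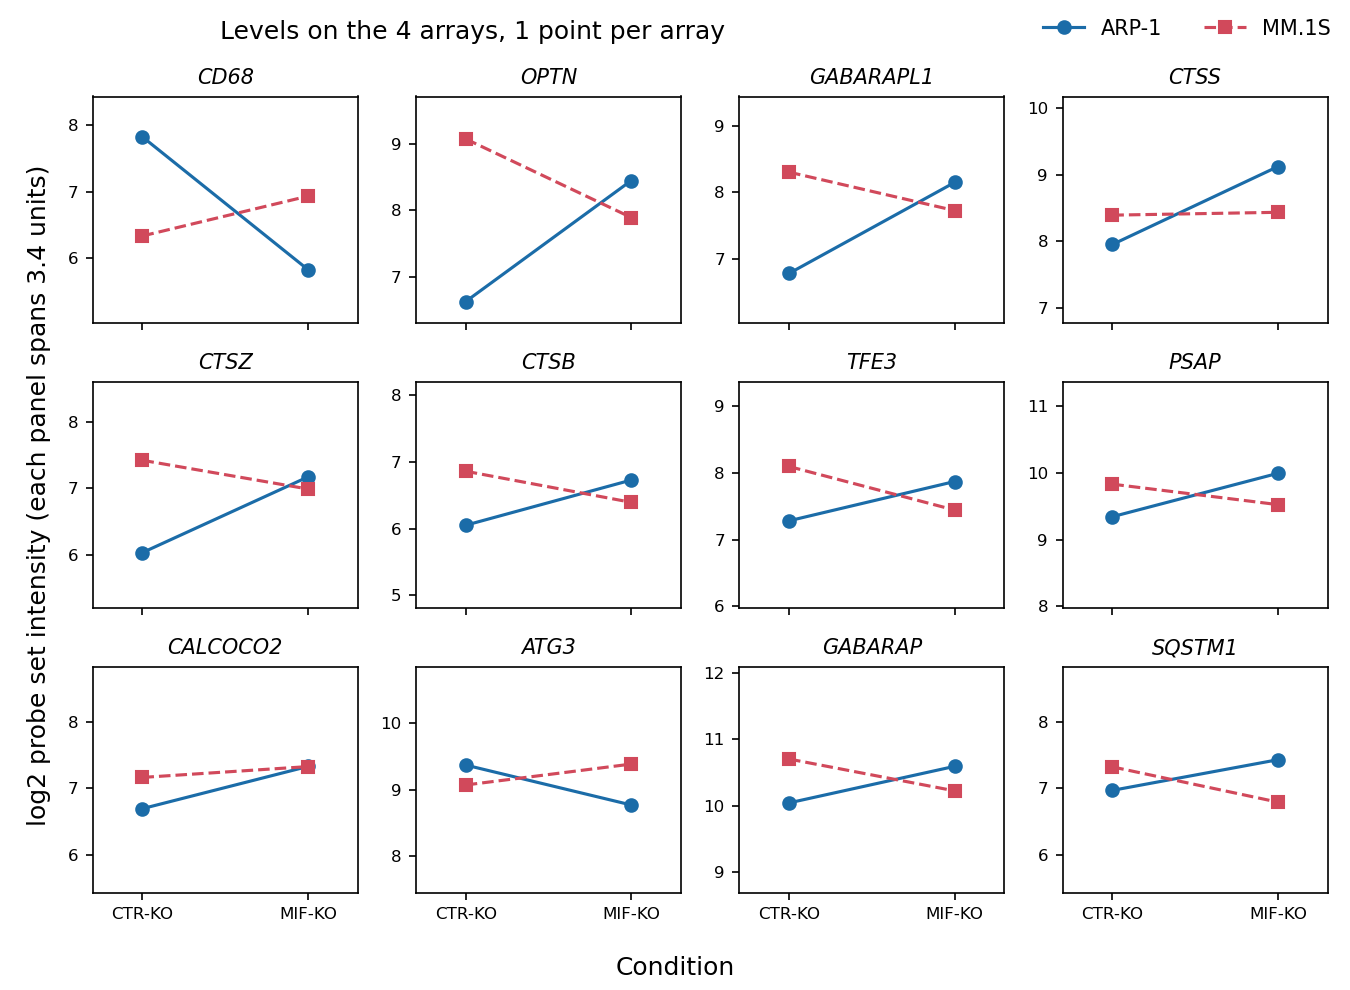
Log2 intensity on each of the 4 arrays for the 12 autophagy and lysosome genes with the largest difference within a line, 1 panel per gene, with lines joining the CTR-KO and MIF-KO arrays of a cell line. For OPTN the lines cross, from 6.63 to 8.44 in ARP-1 and from 9.07 to 7.89 in MM.1S, and for CD68 the CTR-KO ARP-1 array at 7.82 is the highest of the 4.

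Proteins of the ATG8 family coat the autophagosome membrane. GABARAPL1 differed most among them, with log2 intensities of 6.78 in CTR-KO ARP-1, 8.15 in MIF-KO ARP-1, 8.30 in CTR-KO MM.1S and 7.73 in MIF-KO MM.1S. The CTR-KO ARP-1 array alone was low, and the other arrays lay within 0.58 of each other. MIF-KO exceeded CTR-KO 2.58-fold in ARP-1, whereas the difference in MM.1S was -0.58 and just short of 1.5-fold. The mean over both lines was 0.39 (SE 0.53, 95% interval -0.96 to 1.75). GABARAPL1 overlaps its antisense gene GABARAPL1-AS1 in the annotation, and its part in the signal was not tested.

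GABARAP, the founding member of that branch, stood at 10.05 in CTR-KO and 10.59 in MIF-KO ARP-1, and at 10.70 in CTR-KO and 10.23 in MIF-KO MM.1S. The conditions overlapped and the lines ran in opposite directions, at 0.55 and -0.48. GABARAP overlaps PHF23 in the annotation. GABARAPL2 differed little and the other way, at -0.12 for ARP-1 and 0.22 for MM.1S. MAP1LC3B, the usual laboratory marker of autophagosomes, was not tested because of its low signal and stood at 3.93, 4.53, 4.49 and 3.99 in CTR-KO ARP-1, MIF-KO ARP-1, CTR-KO MM.1S and MIF-KO MM.1S.

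Differences in the core machinery were mostly small. Over its 10 tested genes the median difference was 0.13 in ARP-1 (range -0.60 to 0.44) and -0.09 in MM.1S (range -0.51 to 0.31), and the median size without sign in ARP-1 was 0.23, beside 0.29 over all tested genes. ATG3, the enzyme that transfers ATG8 proteins to lipid, was the only one of the 10 past 1.5-fold in a line. It stood at 9.37 in CTR-KO and 8.77 in MIF-KO ARP-1, and at 9.07 in CTR-KO and 9.38 in MIF-KO MM.1S. Its MIF-KO ARP-1 array was the lowest of the 4, and the mean difference was -0.14 (SE 0.36). ATG3 overlaps the coding gene SLC35A5 in the annotation. ATG7, the enzyme that activates ATG8 proteins ahead of ATG3, had the same signs, with -0.30 for ARP-1 and 0.28 for MM.1S.

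ULK1, the kinase that starts autophagy, differed by 0.21 in ARP-1 and by -0.35 in MM.1S. ATG13, its partner, differed by 0.35 and -0.06. ATG9A, the membrane protein of the vesicles that seed the autophagosome, differed by 0.09 and -0.51. ULK1, ATG13 and ATG9A were all higher in MIF-KO ARP-1 and lower in MIF-KO MM.1S, as were 30.1% of all tested genes. Of 71 tested genes of a wider list described below, 35 had this pattern. RB1CC1 and ATG101, which that list places in the core machinery, did not. RB1CC1 differed by -0.18 in ARP-1 and by -0.33 in MM.1S, and ATG101 by -0.26 and 0.04. UVRAG, a subunit of a lipid kinase complex with roles in autophagosome and endosome maturation, differed by 0.44 in ARP-1 and by -0.01 in MM.1S. ATG5, ATG12 and ATG16L1, which form the complex that directs ATG8 proteins to the membrane, lay within 0.25 of no difference in both lines. ATG14, which brings the lipid kinase to the site of autophagosome formation, lay at -0.01 and -0.11.

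The transcription factor TFE3 was at least 1.5-fold apart in both lines. Its log2 intensity was 7.28 in CTR-KO ARP-1, 7.87 in MIF-KO ARP-1, 8.10 in CTR-KO MM.1S and 7.44 in MIF-KO MM.1S. The differences, 0.59 and -0.65, were nearly equal in size and opposite, and the mean over both lines was -0.03 (SE 0.41). TFEB had the same signs at a signal too low to be tested, with 4.26 in CTR-KO and 5.12 in MIF-KO ARP-1, and 4.70 in CTR-KO and 4.26 in MIF-KO MM.1S. Transcript levels do not measure the nuclear entry by which both proteins are mainly controlled.

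**Figure D3:**
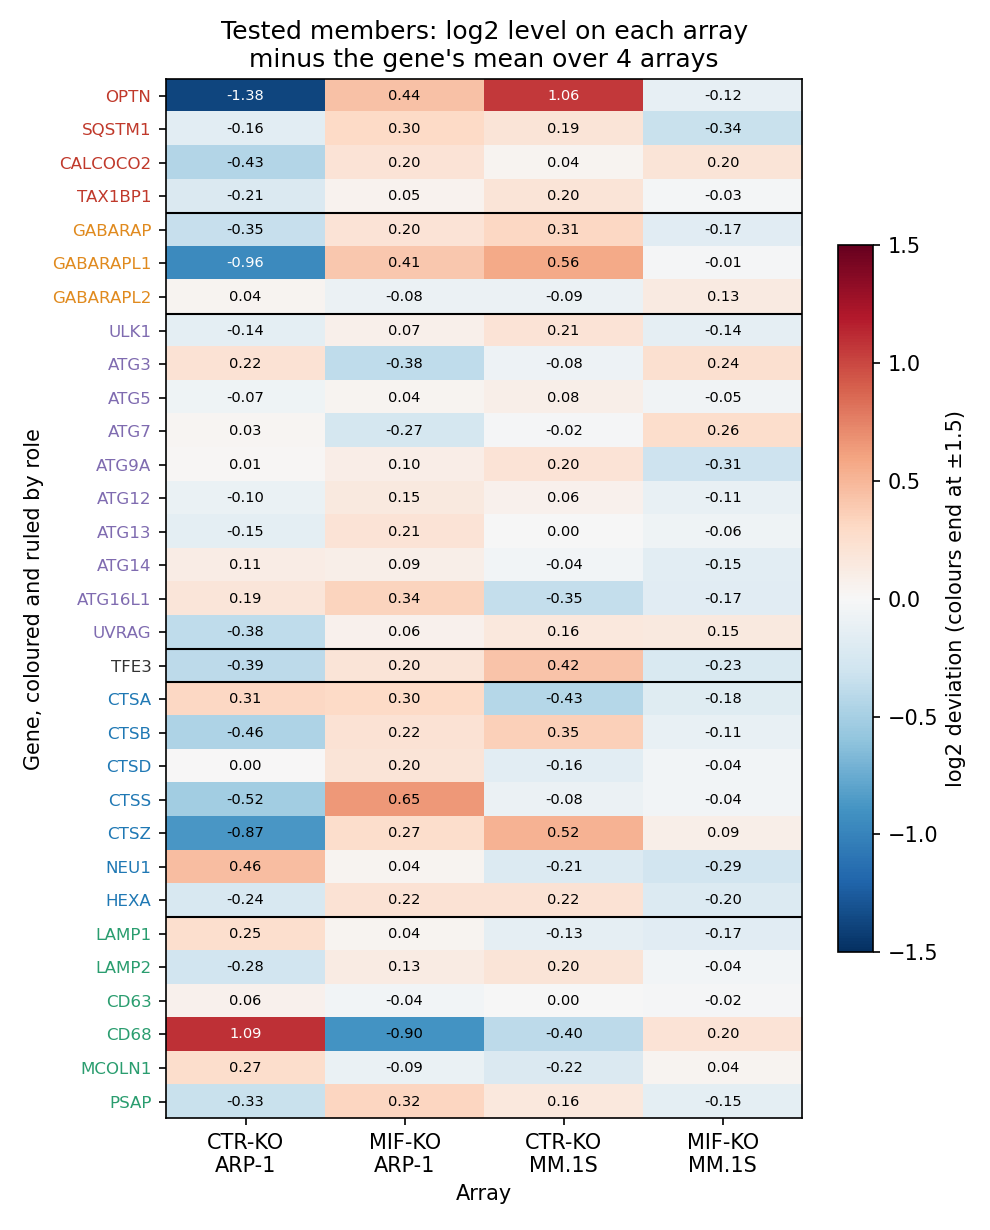
Deviation of each array from the gene's mean over the 4 arrays (log2) for the 31 tested autophagy and lysosome genes, in rows grouped by role, with 1 column per array. CTR-KO ARP-1 has the lowest value for 16 genes, and the median deviation is -0.14 in that column, 0.15 in MIF-KO ARP-1, 0.06 in CTR-KO MM.1S and -0.06 in MIF-KO MM.1S.

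Among lysosomal enzymes, MIF-KO ARP-1 exceeded CTR-KO ARP-1 by 1.5-fold or more for 3 genes, all cysteine cathepsins, which are proteases. CTSS encodes cathepsin S, best known for trimming the invariant chain in antigen presentation. It stood at 7.95 in CTR-KO and 9.12 in MIF-KO ARP-1, and at 8.39 in CTR-KO and 8.44 in MIF-KO MM.1S. Both MIF-KO arrays lay above both CTR-KO arrays, but by only 0.04 within MM.1S against a 2.25-fold difference in ARP-1. The mean difference was 0.61 (SE 0.39, 95% interval -0.40 to 1.61), with a limma adjusted p of 0.99995.

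CTSZ, cathepsin Z, a carboxypeptidase, stood at 6.03 in CTR-KO and 7.17 in MIF-KO ARP-1, and at 7.42 in CTR-KO and 6.99 in MIF-KO MM.1S. The CTR-KO ARP-1 array was low and the other arrays lay close together, as for GABARAPL1. MIF-KO exceeded CTR-KO 2.2-fold in ARP-1, and the mean over both lines was 0.35 (SE 0.45). CTSB, cathepsin B, stood at 6.05 and 6.73 in CTR-KO and MIF-KO ARP-1, and at 6.86 and 6.39 in CTR-KO and MIF-KO MM.1S. Its lines ran in opposite directions, at 0.68 and -0.47.

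The other enzymes differed less. HEXA, a subunit of beta-hexosaminidase, differed by 0.46 in ARP-1 and by -0.42 in MM.1S. NEU1, the lysosomal sialidase, was lower in MIF-KO cells of both lines, by -0.42 and -0.09, and CTSA, the protective protein that holds NEU1 in its complex, differed by -0.02 and 0.24. CTSD, the aspartic protease cathepsin D, differed by 0.19 and 0.11. CTSH and CTSL had low signals on every array, from 3.10 to 3.29 and from 3.51 to 3.94, and were not tested. Over the 7 tested enzymes the median was 0.46 for ARP-1 and -0.09 for MM.1S. These medians rest on which enzymes are kept, since the ARP-1 median was 0.19 with no filter on low values and with a stricter one, and under the stricter one the MM.1S median was 0.04.

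CD68 was the largest negative difference of the 31 in ARP-1. It encodes a heavily glycosylated lysosomal membrane protein that is abundant in macrophages and commonly used to stain them. Its log2 intensity was 7.82 in CTR-KO ARP-1, 5.83 in MIF-KO ARP-1, 6.34 in CTR-KO MM.1S and 6.93 in MIF-KO MM.1S. The CTR-KO ARP-1 array was the highest and the MIF-KO ARP-1 array the lowest, with MM.1S between them. CD68 was 3.98-fold higher in CTR-KO than in MIF-KO ARP-1 and 0.60 higher (log2) in MIF-KO than in CTR-KO MM.1S. The mean difference was -0.70 (SE 0.64, 95% interval -2.35 to 0.95). The 5 monocyte and macrophage markers named here, of 7 listed, all lay below the tested range at log2 intensities from 2.56 to 4.57, among them CD14, LYZ, CSF1R and CD163. Their summed linear intensity was 54.3 in CTR-KO ARP-1, 55.7 in MIF-KO ARP-1, 59.9 in CTR-KO MM.1S and 58.9 in MIF-KO MM.1S. At such low signals the order of these sums cannot be read, and their part in the levels of CD68 and CTSS was not tested. CD68 overlaps the antisense gene MPDU1-AS1 in the annotation, whose part in the signal was not tested.

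PSAP, prosaposin, is cut into the saposins that help lipid-degrading enzymes. Its difference in ARP-1 passed 1.5-fold, with 9.34 in CTR-KO and 10.00 in MIF-KO ARP-1, and 9.83 in CTR-KO and 9.53 in MIF-KO MM.1S. The lines differed in direction, at 0.65 and -0.31. PSAP overlaps the pseudogene RNU7-38P in the annotation. LAMP2, a structural membrane glycoprotein that is also the receptor for uptake of single proteins by the lysosome, differed by 0.41 and -0.24. The other membrane genes ran lower or flat in MIF-KO ARP-1. MCOLN1, the lysosomal calcium channel, differed by -0.36 in ARP-1 and by 0.26 in MM.1S. LAMP1 differed by -0.21 and -0.03, and CD63, a tetraspanin of lysosomes and exosomes, by -0.10 and -0.02.

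Read by condition alone, few of the genes separated. Both MIF-KO arrays lay above both CTR-KO arrays for 2 of the 31 genes, CALCOCO2 and CTSS, beside 11.2% of all tested genes, and below them for 1, CD63, beside 9.47%. For CD63 the margin was small, with 7.58 in CTR-KO and 7.48 in MIF-KO ARP-1, and 7.52 in CTR-KO and 7.50 in MIF-KO MM.1S.

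Over the array pairs, CTR-KO MM.1S and MIF-KO ARP-1 were closest for the 31 genes, as they were for all tested genes. The median absolute difference was 0.16 over the 31 genes and 0.18 over all tested genes, with 19 of the 31 (61.3%) and 54.7% of all tested genes under 0.2 apart. The CTR-KO arrays of both lines, which share the control hairpin, had a median absolute difference of 0.46 over the 31 genes and 0.29 over all tested genes, with OPTN the furthest of the 31 at 2.44. CTR-KO ARP-1 and MIF-KO MM.1S lay closer, at 0.23 and 0.20. The CTR-KO ARP-1 array gave the lowest level for 16 of the 31 genes (51.6%), and for 32.5% of all tested genes. It gave the highest level for 7 (22.6%), beside 32.1%. The CTR-KO MM.1S array gave the highest level for 12 (38.7%), beside 23.0%. Without the CTR-KO ARP-1 array no within-line value for ARP-1 can be given, and its part in the ARP-1 differences was not tested.

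Between the lines, the cell line term of the same fit also called 0 of the 31 genes, beside 0% of all tested genes, with 87 genes at an unadjusted p under 0.05 and 0 of the 31 among them. UVRAG was higher on both MM.1S arrays than on both ARP-1 arrays, 1 of 31, beside 15.8% of all tested genes. Both MM.1S arrays were lower for 6 of 31 (ATG14, ATG16L1, CTSA, CTSD, NEU1 and LAMP1), beside 11.6%. CTSA stood at 9.08 in CTR-KO and 9.06 in MIF-KO ARP-1 against 8.34 in CTR-KO and 8.58 in MIF-KO MM.1S, a mean line difference of -0.61 (SE 0.30, 95% interval -1.39 to 0.17). ATG16L1 stood at 6.34 and 6.50 in ARP-1 against 5.80 and 5.99 in MM.1S, CTR-KO before MIF-KO, a mean line difference of -0.53 (SE 0.25, 95% interval -1.16 to 0.11). For NEU1 the mean line difference was -0.50 and for LAMP1 -0.30. The sialidase NEU1 and its partner CTSA were thus both lower on both MM.1S arrays, though neither passed the test.

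Promoters with CACGTG were more frequent among the genes than among all promoters. The 5 motifs searched, on both strands, were CACGTG, the longer GTCACGTG that contains it, TGATGNAA of the ATF4 type, the cyclic AMP response element TGACGTCA, and GTAAACA, which forkhead factors bind. The core CACGTG was in 9 of 54 windows of the genes (16.7%) and in 7.26% of all 35093 windows. By gene, 9 of the 37 with a window held it (24.3%), namely ATG14, ATG3, CD63, CTSA, CTSD, GAA, LAMP1, MCOLN1 and NEU1. That share by gene is not comparable with the 7.26% of windows. Over all tested genes with a window, 789 held CACGTG and 5159 did not, beside 8 and 17 of the tested autophagy and lysosome genes. A gene with several start sites, such as CD63 with 8 windows, has more chances to hold a motif. GTCACGTG was in 7 of 54 windows (13%), beside 2.40% of all windows. The ATF4-type motif was in 0 of 54, beside 3.62%. The cyclic AMP response element was in GABARAPL1 alone, 1 window, beside 1.85%. The forkhead motif was in CALCOCO2 and CTSL, beside 3.42%. A match of letters is a description, and other factors also bind CACGTG.

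Split by CACGTG, the genes differed in how many were higher in MIF-KO ARP-1. Of the 8 tested with CACGTG, 1 (CTSD) was higher in MIF-KO ARP-1 and 0 were higher by 1.5-fold, with a median of -0.16 (range -0.60 to 0.19). Of the 17 tested with a window but without CACGTG, 14 were higher (82.4%) and 5 were higher by 1.5-fold (29.4%), with a median of 0.27. The split leaves out the tested genes without a window, PSAP, UVRAG, LAMP2, HEXA, CTSB and CTSS. All of these were higher in MIF-KO ARP-1, by 0.41 to 1.17, and whether their promoters hold CACGTG is not known here. The contrast therefore rests on which genes had an entry. In MM.1S the medians were 0.05 with it and -0.23 without it. Over all tested genes with a window, the ARP-1 median was -0.10 for 789 genes with CACGTG and -0.03 for 5159 without. Of these, 42.7% with it and 47.6% without it were higher, and 6.59% and 11.2% were higher by 1.5-fold. No test was made of this difference, since the genes were not drawn at random.

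**Figure D4:**
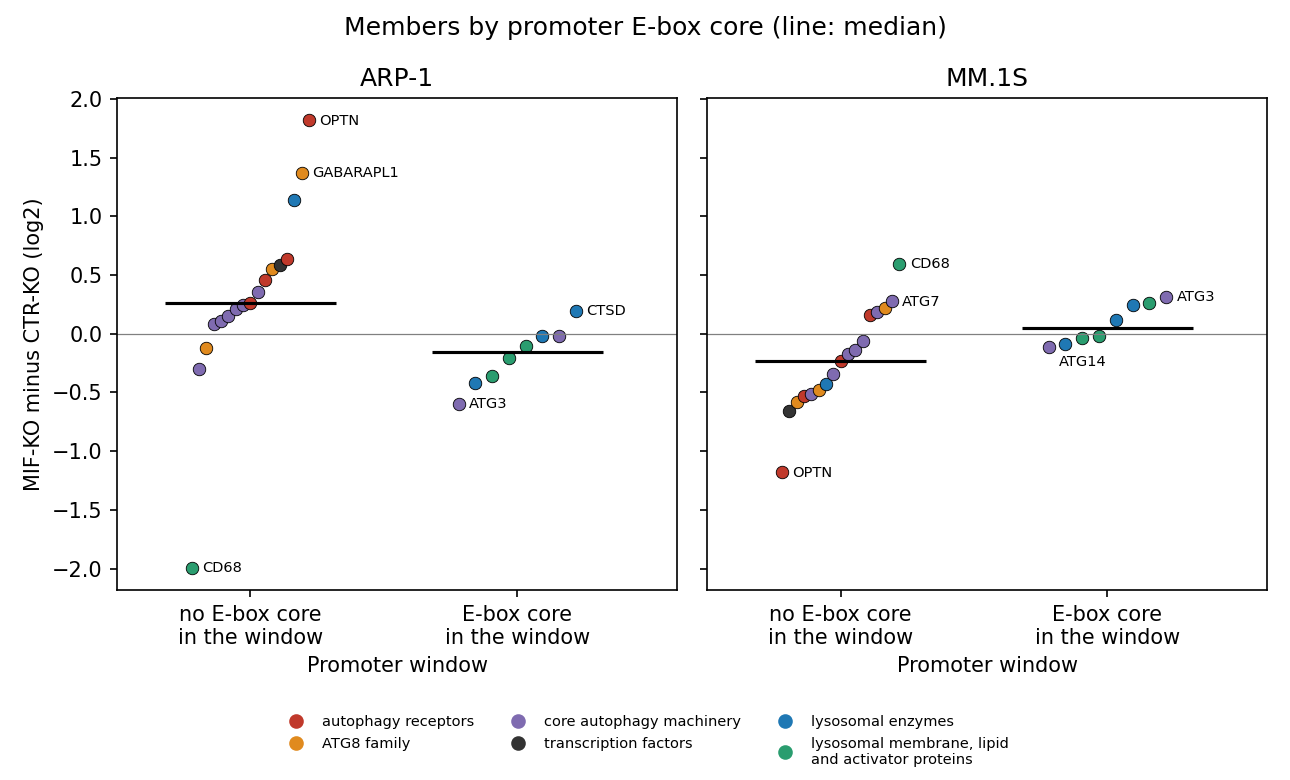
MIF-KO minus CTR-KO (log2) in each line for the tested autophagy and lysosome genes with a RefSeq promoter window, split by whether a window holds CACGTG (8 genes with, 17 without), 1 point per gene and a bar at the median. In ARP-1 the medians are -0.16 with the motif and 0.27 without it, and in MM.1S 0.05 and -0.23.

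A wider list of 158 further autophagy and lysosome genes, of which 87 were named here and 71 tested, had a median difference of 0.12 in ARP-1 and -0.09 in MM.1S. In ARP-1, 17 of the 71 exceeded CTR-KO by 1.5-fold or more in MIF-KO cells, beside 10.9% of all tested genes, and 2 were lower (CTSW and ARSB), beside 11.9%. CTSW reached the tested level only through its CTR-KO ARP-1 array, the one where it was high. In MM.1S, 0 were higher, beside 5.12%, and 8 were lower, beside 2.89%. Opposite in both lines were 5 of 71, beside 4.88%, namely CALCOCO1, PINK1, WDR45, CTSF and CTSO. The 15 other lysosomal hydrolases had a median of 0.63 in ARP-1, with 9 higher and 2 lower by 1.5-fold, and of -0.26 in MM.1S, and 14 of them had opposite signs in the lines, beside 67.6% of all tested genes. The 16 other core autophagy genes had medians of 0.05 and -0.06. None of the 19 listed subunits of the V-ATPase, the pump that acidifies the lysosome, is named on this array here.

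CALCOCO1, a receptor for autophagy of the endoplasmic reticulum, had the largest ARP-1 difference of the wider list. It stood at 6.27 in CTR-KO and 8.55 in MIF-KO ARP-1, and at 8.24 in CTR-KO and 7.37 in MIF-KO MM.1S. As for OPTN, CTR-KO ARP-1 was the lowest array, but here MIF-KO ARP-1 was the highest. CTSO, cathepsin O, stood at 8.16 and 9.57 in CTR-KO and MIF-KO ARP-1 and at 9.62 and 9.01 in CTR-KO and MIF-KO MM.1S. RRAGD, a GTPase that links amino acids to mTORC1 at the lysosome, differed by 1.33 in ARP-1 and by -0.35 in MM.1S. ARSA, the sulfatase arylsulfatase A, differed by 1.11 and -0.26.

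Fewer genes of the wider list ran the other way. CTSW, a cathepsin of cytotoxic lymphocytes, stood at 6.20 in CTR-KO ARP-1 and at 4.82, 4.57 and 4.75 in MIF-KO ARP-1, CTR-KO MM.1S and MIF-KO MM.1S, so that 1 array alone was high. The other arrays lay below the level of 4.97 that a gene's mean had to reach. CTSW was thus tested only because of CTR-KO ARP-1, and its count as lower in MIF-KO ARP-1 is not independent of that. Of 5 T and NK cell markers, 3 were named here and 1, CD8A, lay in the tested range, and their summed linear intensity was 86.4 in CTR-KO ARP-1, 76.9 in MIF-KO ARP-1, 69.7 in CTR-KO MM.1S and 75.2 in MIF-KO MM.1S. The markers did not move together. CD8A and CD2 were highest in CTR-KO ARP-1, at log2 intensities of 5.70 and 3.59, whereas NKG7 was highest in CTR-KO MM.1S, at 4.68 against 4.48. CD2 and NKG7 lay below the tested range, so the order of the sums cannot be read. The part of these markers in the level of CTSW was not tested. ARSB, arylsulfatase B, differed by -0.73 in ARP-1 and by 0.52 in MM.1S, and PPT1, a thioesterase that removes palmitate, by -0.43 and 0.46. FUNDC1, a mitophagy receptor, was lower in both lines, by -0.47 and -0.24. In MM.1S, CTSC, the protease that activates granule serine proteases, differed by 0.42 and TBK1, the kinase that phosphorylates OPTN, by 0.36.

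In MM.1S the largest negative differences of the wider list after CALCOCO1 (-0.87) were in FOXO3, PINK1 and WDR45. FOXO3, a forkhead factor that drives autophagy genes, stood at 5.63 in CTR-KO and 5.32 in MIF-KO ARP-1, and at 6.21 in CTR-KO and 5.36 in MIF-KO MM.1S. It was lower in MIF-KO cells of both lines. PINK1, the kinase that marks damaged mitochondria, differed by 0.84 in ARP-1 and by -0.79 in MM.1S. WDR45, which binds the lipid of the growing membrane, differed by 0.93 and -0.71.

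If the ARP-1 arrays are instead named as their descriptions have it, the outcome of the test changes. By construction, the exchange turns the sign of every ARP-1 difference. OPTN, TFE3 and CD68, singled out above for their opposite directions, then have to point the same way in both lines. Small p-values under the exchange restate those large opposite differences and are no separate evidence for these genes. MIF would then be higher in ARP-1 cells with the hairpin against it, by 1.01 on the log2 scale, and lower by -1.32 in MM.1S. The same limma model called 3 of the 31 genes, beside 5.39% of all tested genes. OPTN was lower in MIF-KO by -1.5 (SE 0.20, 95% interval -1.95 to -1.05, adjusted p by limma 0.00889), in both lines. GABARAPL1 was lower by -0.97 (SE 0.22, adjusted p by limma 0.0329), and CD68 was higher by 1.3 (SE 0.28, adjusted p by limma 0.0313), each in both lines. CTSZ at -0.78 and TFE3 at -0.62 missed the threshold, with limma adjusted p-values of 0.0611 and 0.0733. Of the wider list the exchange called 6 of 71, CALCOCO1, PINK1, WDR45, CTSF, CTSO and HGSNAT, all lower in MIF-KO. These genes and GABARAPL1 also had opposite signs in the lines under the titles, so their calls restate those differences too. Such calls are no separate evidence. Under the titles, the adjusted p by limma was 0.99995 for OPTN, GABARAPL1 and CD68.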

How the data were processed

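Total RNA of 4 samples was labelled with biotin and read on whole-transcript arrays. The authors deposited a linear intensity for each of 53617 probe sets, from 2.74 to 15935. The submitters' processing notes name RMA and limma. The background step, annotation or genome build was not given in the sources used here. Because the test design had assumed log2 values, log2 of the intensities was taken, with no pseudocount. Arrays give no read depth, and their number limits the precision.

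A platform annotation named 16098 probe sets with 1 symbol, all matched to RefSeq by Entrez ID. A further 37519 are unnamed here. Where a gene had several probe sets, the one with the highest mean stood for it. No gene of the 44 had several. Overlaps between genes were read from whole annotated spans, without exon, strand or probe positions. Among the overlaps not given above, CTSA overlaps PLTP, CD63 overlaps RDH5, ATG7 overlaps VGLL4 and ATG14 overlaps FBXO34. Their part in the signals was not tested. Genes with a mean of at least 4.97 (log2), the median of gene means, were tested.

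The fit was limma 3.58.1 in R 4.3.3, with cell line and condition as terms and eBayes with a trend, over all 4 arrays. It has 1 residual degree of freedom, and the prior added 3.99. Cell line pairs the samples, per the labels. Deviations from the condition means of same-line arrays correlated at r = -0.37 over genes. Adjusted p-values (Benjamini-Hochberg) had a threshold of 0.05. No label tells of separate cultures, so p-values measure only the spread between these samples. The fit was tested on simulated data in which both lines responded alike. That does not cover the opposite responses of the lines seen here.

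The genes and lists were chosen with earlier results of these data known. Given in full are the 12 tested genes with the largest difference within a line and any at least 1.5-fold apart in both. Of the wider list, the 4 largest differences each way within each line were named. CTSF, HGSNAT, RRAGC, DEPTOR, BNIP3L, RB1CC1, ATG101, LAMP3, GALC, MITF and TFEC were added outside that rule, after their values were seen. The alternatives tried were exchanged ARP-1 arrays, no or a stricter filter, a median shift, quantile normalization, log2(value + 16), the mean over probe sets, no trend, no line term and leaving arrays out.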

Additional observations from a re-analysis of the deposited data

Results flagged for a closer look

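In 3 genes the lines moved in opposite directions by at least 1.5-fold each. The MM.1S difference (MIF-KO minus CTR-KO, log2) minus the ARP-1 difference was -3.00 for OPTN, -1.24 for TFE3 and 2.59 for CD68. With 1 array per line and condition, this difference between the lines was not tested.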

How the results depend on the processing

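The count of genes called for MIF-KO against CTR-KO was 0 in the limma fit as designed (29 at an unadjusted p under 0.05) and 401 with the ARP-1 arrays exchanged. It was 0 under the other 12 alternatives of this fit, with 4 to 652 genes at an unadjusted p under 0.05. Without the line term (no replicate block) it was 0, with 41 at an unadjusted p under 0.05. Among those alternatives, models that left out 1 array had condition as the only term, and the condition with 1 array was assumed to vary like the other. The stricter filter, which tests fewer genes, lowered the genes past 1.5-fold from 1697 to 930 in ARP-1 and from 596 to 318 in MM.1S.

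Under the exchange of the ARP-1 arrays, the mean over both lines changed sign for 10 of the 12 genes given in full. It became 1.3 for CD68, -1.5 for OPTN, -0.97 for GABARAPL1, -0.56 for CTSS, -0.78 for CTSZ, -0.57 for CTSB, -0.48 for PSAP, -0.24 for CALCOCO2, 0.46 for ATG3 and -0.51 for GABARAP. That of SQSTM1 moved from -0.03 to -0.50 and that of TFE3 from -0.03 to -0.62. By construction the ARP-1 differences also turned sign, to 1.99 for CD68, -1.82 for OPTN, -1.37 for GABARAPL1, -1.17 for CTSS, -1.14 for CTSZ, -0.68 for CTSB, -0.59 for TFE3, -0.65 for PSAP, -0.63 for CALCOCO2, 0.60 for ATG3, -0.55 for GABARAP and -0.46 for SQSTM1.

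Leaving out either line's pair gave means from -1.99 to 0.60 for CD68, -1.18 to 1.82 for OPTN, -0.58 to 1.37 for GABARAPL1, -0.43 to 1.14 for CTSZ, -0.47 to 0.68 for CTSB, -0.65 to 0.59 for TFE3, -0.31 to 0.65 for PSAP, -0.60 to 0.31 for ATG3, -0.48 to 0.55 for GABARAP and -0.53 to 0.46 for SQSTM1. The mean differences of these 12 genes kept their sign under the median shift, quantile normalization and log2(value + 16). They were identical under no filter, the mean over probe sets, no trend and no line term. Those settings cannot change the mean difference of a gene with 1 probe set in this balanced design, so they are no check of it. The stricter filter kept 9 of the 12, and it cannot change their means either.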

Other observations

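Some autophagy and lysosome genes of the wider list lay below the tested range and had large differences in ARP-1 all the same. They were picked after their values were seen. LAMP3, a lysosomal membrane protein induced in maturing dendritic cells, stood at log2 intensities of 3.92 in CTR-KO and 5.64 in MIF-KO ARP-1, and at 4.43 in CTR-KO and 4.0 in MIF-KO MM.1S. GALC, which degrades galactosylceramide, stood at 3.43 and 4.57 in CTR-KO and MIF-KO ARP-1 and at 4.10 and 4.35 in CTR-KO and MIF-KO MM.1S. MITF and TFEC, the relatives of TFEB and TFE3, lay between 2.27 and 3.17 on all arrays.

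Of the nutrient-signalling genes in the tested range, RRAGC, which pairs with RRAGA or RRAGB at the lysosome, differed by 0.76 in ARP-1 and by -0.41 in MM.1S. DEPTOR, an inhibitor of mTOR known for its high level in some myelomas, stood at 5.77 in CTR-KO and 6.83 in MIF-KO ARP-1 and at 6.0 in CTR-KO and 5.95 in MIF-KO MM.1S. BNIP3L, a mitophagy receptor, differed by 0.92 in ARP-1 and by -0.37 in MM.1S. RRAGC, DEPTOR and BNIP3L were also picked after their values were seen. Over the 16 tested nutrient-signalling genes the median was 0.07 in ARP-1 and -0.17 in MM.1S. None of these differences within a line has a test.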
